A study of Mus musculus with 19 samples.

Results

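Mitochondrial complex I genes of the nucleus were followed across the day in ribosome-bound RNA from mouse spinal cord cholinergic neurons. The genes were taken by symbol: every gene of the count table whose symbol starts with Nduf, apart from 3 named as pseudogenes by the suffix -ps, which gave 51 of 50559 genes. By known role, 7 encode core subunits, 30 accessory subunits and 8 Ndufaf assembly factors, and 6 carry the prefix without belonging to complex I. These 6 are Ndufa4, a subunit assigned to complex IV, its hypoxia-induced paralog Ndufa4l2, the Ndufb4 copies Ndufb4b and Ndufb4c, and the pseudogenes Ndufs6b and Ndufa11b.

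Complex I, NADH:ubiquinone oxidoreductase, takes electrons from NADH at the tip of its matrix arm, passes them along a chain of iron-sulfur clusters to ubiquinone, and uses the energy to pump protons through its membrane arm. The core subunits carry out this chemistry, and some of them are encoded by mitochondrial DNA. Accessory subunits surround and stabilise the core, and assembly factors help to build the enzyme without staying in it. Neurons depend heavily on oxidative phosphorylation, and loss of complex I subunits causes Leigh syndrome and other disorders of the nervous system.

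The RNA came from 10-week-old male ChAT-Cre;RiboTag fx/+ mice on a C57BL/6J background, labelled wild-type and kept in 12 h of light and 12 h of darkness. In these animals Cre, expressed from the choline acetyltransferase gene, switches on a hemagglutinin tag on a ribosomal protein, so that every Cre-expressing cell of the spinal cord, and not motor neurons alone, gives tagged ribosomes. Each of the 18 immunoprecipitates came from 1 spinal cord, with 3 collected at each of the zeitgeber times (ZT, hours after lights on) ZT0, ZT4, ZT8, ZT12, ZT16 and ZT20, and 1 further library, the pooled input, held total RNA of the homogenate. Levels are given as counts per 1000000 counts of the library (CPM), scaled between libraries by the trimmed mean of M-values (TMM).

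The immunoprecipitates held 6302140 to 22406850 counts and the pooled input held 15239783. Of 7 cholinergic markers (Chat, Slc18a3, Slc5a7, Ache, Isl1, Mnx1 and Prph), 6 were at least 2-fold above the input with all 18 immunoprecipitates on that side, and none was at 0 at any time point. Their summed level ran from 4295 to 4768 CPM at ZT0, from 4230 to 4685 CPM at ZT8 and from 4623 to 5027 CPM at ZT16. Nevertheless 4 of the 7 were lower at ZT8 than at ZT0 by edgeR, where 9.02% of all genes were lower. At ZT16, 5 of the 7 were higher than at ZT8, where 9.11% of all genes were higher. The median log2 fold change of the 7 was -0.64 from ZT0 to ZT8 and 0.59 from ZT8 to ZT16. All 7 oligodendrocyte markers were depleted relative to the input, but ZT16 replicate 3 had a summed level of 2887 CPM against 1515 to 2207 CPM in the other immunoprecipitates. In bulk RNA of this kind, fewer cells of a type and less RNA per cell cannot be told apart, and the part of the cholinergic list in the results was not tested. With the oligodendrocyte score as a covariate, edgeR called 29 members between ZT0 and ZT8, 27 between ZT8 and ZT16, 15 among the time points and 0 by the cosine curve, where the fits without it called 27, 24, 10 and 11. Over all 15572 genes the counts were 2967, 2749, 1088 and 4 with the covariate, and 2798, 2633, 1050 and 972 without it.

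The regions upstream of 4 complex I genes are shown because the results turn on these genes: Ndufb3 and Ndufa5 had the largest rises from ZT0 to ZT8, and Ndufb2 and Ndufa10 had the largest falls. Each line holds 250 bases before a transcription start annotated by RefSeq on GRCm38.p6, read 5′ to 3′ on the strand of the gene, with motif matches in capitals. For Ndufb3 they lie at chr1:58586147-58586396 on the plus strand, for Ndufa5 at chr6:24527691-24527940 on the minus strand, for Ndufb2 at chr6:39592315-39592564 on the plus strand and for Ndufa10 at chr1:92473759-92474008 on the minus strand.
Ndufb3: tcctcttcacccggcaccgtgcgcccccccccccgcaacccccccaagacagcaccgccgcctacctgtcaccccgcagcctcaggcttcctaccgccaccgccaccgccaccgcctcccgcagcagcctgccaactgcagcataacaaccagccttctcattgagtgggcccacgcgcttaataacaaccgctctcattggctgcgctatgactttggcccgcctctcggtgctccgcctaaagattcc
Ndufa5: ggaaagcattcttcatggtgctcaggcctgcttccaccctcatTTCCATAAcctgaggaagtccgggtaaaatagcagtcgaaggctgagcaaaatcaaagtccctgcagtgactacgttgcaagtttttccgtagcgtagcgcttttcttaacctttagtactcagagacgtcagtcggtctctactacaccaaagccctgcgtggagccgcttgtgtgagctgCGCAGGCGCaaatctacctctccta
Ndufb2: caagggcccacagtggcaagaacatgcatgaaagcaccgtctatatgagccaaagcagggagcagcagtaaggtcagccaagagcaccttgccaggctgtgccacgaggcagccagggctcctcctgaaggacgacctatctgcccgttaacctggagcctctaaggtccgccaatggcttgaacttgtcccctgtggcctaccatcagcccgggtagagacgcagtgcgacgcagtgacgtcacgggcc
Ndufa10: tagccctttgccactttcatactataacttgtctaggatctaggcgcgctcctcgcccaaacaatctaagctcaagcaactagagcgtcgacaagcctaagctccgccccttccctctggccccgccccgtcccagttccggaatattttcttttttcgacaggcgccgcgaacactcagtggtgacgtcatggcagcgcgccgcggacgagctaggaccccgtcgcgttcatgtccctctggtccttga

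In the Ndufa5 sequence the capitals mark a D-box at -207 to -200 and an NRF1 match at -25 to -17 from the start, both on the opposite strand to the letters searched. The other 3 windows hold none of the motifs searched. The motifs were NRF1 (GCGCNTGCG), the ETS family (CCGGAAGT), ERR (TCAAGGTCA), YY1 (AAGATGGC), the E-box bound by clock proteins (CACGTG) and the D-box (TTATGNAA), each on both strands from 250 bases before to 50 after the start, and no pair of these motifs is nested. RefSeq promoters were matched by symbol for 40 of the 45 complex I genes, Ndufa2, Ndufb9, Ndufs1 and Ndufaf6 being among those without one. NRF1, a regulator of nuclear genes for mitochondrial proteins, had a match in 11 of the 40 promoters (27.5%) and in 7.12% of all 27025 genes with a promoter. That background was not limited to genes expressed in these libraries. YY1 had a match in 8 (20%, against 3.19%), the E-box in 2 (5%, against 8.09%), the D-box in 1 (2.5%, against 3.99%), the ETS motif in 1 (2.5%, against 4.31%) and ERR in 0 (against 0.466%). The E-boxes lay at Ndufa7 and Ndufv1, and the D-box at Ndufa5. Among the 22 promoters of genes that were higher at ZT8 than at ZT0, 5 held an NRF1 match and 5 a YY1 match (22.7% each). The 3 promoters of genes that were lower are too few to compare with them.

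Complex I genes differed widely in level. Taking CPM per kilobase of transcript, the median gene stood at 248 for core subunits, 238 for accessory subunits and 23.1 for assembly factors, as means over 18 immunoprecipitates. Ndufa11, a membrane arm subunit, and Ndufc2, a small subunit of the same arm, were highest among complex I genes at 681 ± 133 and 613 ± 173 CPM per kilobase (SD, n = 18). Their spreads overlapped with each other and with Ndufs7 at 589 ± 159. Ndufa4 was higher than all of them at 1014 ± 294 CPM per kilobase. At the other end, Ndufa4l2 stood at 0.447 ± 0.235, Ndufaf4 at 5.46 ± 0.906 and Ndufaf6 at 11.9 ± 1.43 CPM per kilobase. Ndufaf4 and Ndufaf6 act in early steps of assembly.

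The comparison of ZT8 with ZT0 asks which transcripts differ between 8 h into the light phase and its start. It was chosen as the pair of time points with most calls over all genes, and adjusted p-values do not allow for that choice. Of the 51 genes, 49 had enough counts to be tested; Ndufa11b had 0 counts and Ndufs6b had 4 over all immunoprecipitates. At ZT8, 24 of the 49 were higher and 3 were lower at an adjusted p under 0.05 (edgeR quasi-likelihood test, Benjamini-Hochberg over 15572 genes), where 18.0% of all genes were called, 8.95% higher and 9.02% lower. The accessory subunits made up most of the calls, with 19 of 30 higher and 2 lower and a median log2 fold change of 0.56, against a median of -0.003 over all genes tested. Core subunits gave 3 higher and 1 lower of 7 with a median of 0.16, and assembly factors gave 1 higher and 0 lower of 8 with a median of -0.20. The 20 subunits of the membrane arm had 14 higher and 2 lower (median 0.63), and the 16 of the matrix arm had 7 higher and 1 lower (median 0.30). Class went with transcript length: 22 of 30 accessory subunits, 2 of 7 core subunits and 2 of 8 assembly factors were under 1000 nt. All tested genes of that length had a median log2 fold change of 0.40. Differences between classes were not tested, apart from length or otherwise.

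Among accessory subunits the largest rise was that of Ndufb3, a small subunit of the distal membrane arm whose gene lies at chr1:58586397-58595964. Its level was 151, 206 and 151 CPM in the 3 ZT0 libraries and 248, 553 and 414 CPM in the 3 ZT8 libraries. The groups did not overlap, and ZT8 replicate 1 stood well below the other ZT8 libraries. The log2 fold change was 1.26 (SE 0.28, edgeR adjusted p = 0.00746). Ndufa5, a matrix arm subunit (chr6:24518662-24527690), stood at 136, 178 and 161 CPM at ZT0 and at 228, 499.6 and 384 CPM at ZT8, and rose by 1.23 on the log2 scale (SE 0.29, edgeR adjusted p = 0.009). Again ZT8 replicate 1 was the lowest of its group, yet above every ZT0 library. Ndufs5, of the membrane arm, rose by 1.23 (SE 0.28, edgeR adjusted p = 0.00898), but its pseudogene Ndufs5-ps took 37.6% of the reads of the pair and its level is therefore uncertain. Ndufb1, a small membrane arm subunit, rose by 1.10 (SE 0.29, edgeR adjusted p = 0.0153).

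Other accessory subunits rose between 0.45 for Ndufa8 and 1.05 for Ndufa2, a matrix arm subunit with a thioredoxin-like fold, on the log2 scale. Ndufa2 lay between 112 and 165 CPM at ZT0 and between 194 and 336 CPM at ZT8. Ndufb7 of the membrane arm went from 235 ± 43.0 to 465 ± 124 CPM (SD, n = 3) and back to 246 ± 84.1 CPM at ZT16. Ndufc2 went from 324 ± 62.8 to 572 ± 135 CPM, Ndufa1, a small membrane arm subunit encoded on the X chromosome, from 73.7 ± 14.5 to 144 ± 41.0 CPM, and Ndufab1, the mitochondrial acyl carrier protein, from 236 ± 24.9 to 403 ± 94.3 CPM. In all 5 genes the lowest ZT8 library exceeded the highest ZT0 library. The 9 accessory subunits that did not pass ran from -0.14 for Ndufv3, a small matrix arm subunit, to 0.48 for Ndufb4 of the membrane arm.

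A pair of accessory subunits moved the other way. Ndufb2, a membrane arm subunit encoded at chr6:39592565-39599843, stood at 66.8, 65.7 and 66.0 CPM at ZT0, at 47.4, 31.8 and 30.7 CPM at ZT8 and at 76.8, 71.0 and 69.0 CPM at ZT16. All ZT8 libraries were lower than all libraries of both other times. Its other libraries had 44.8, 32.4 and 41.5 CPM at ZT4, 59.8, 61.7 and 56.4 CPM at ZT12 and 67.1, 54.2 and 66.1 CPM at ZT20, so that ZT4 shared the low range of ZT8. It fell by 0.86 on the log2 scale from ZT0 to ZT8 (SE 0.15, edgeR adjusted p = 0.00519). Ndufa10, a membrane arm subunit related to nucleoside kinases, stood at 269.9, 245 and 262 CPM at ZT0 and at 204, 127 and 142 CPM at ZT8, a fall of 0.72 (SE 0.16, edgeR adjusted p = 0.00746), with no overlap between the groups.

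**Figure D1:**
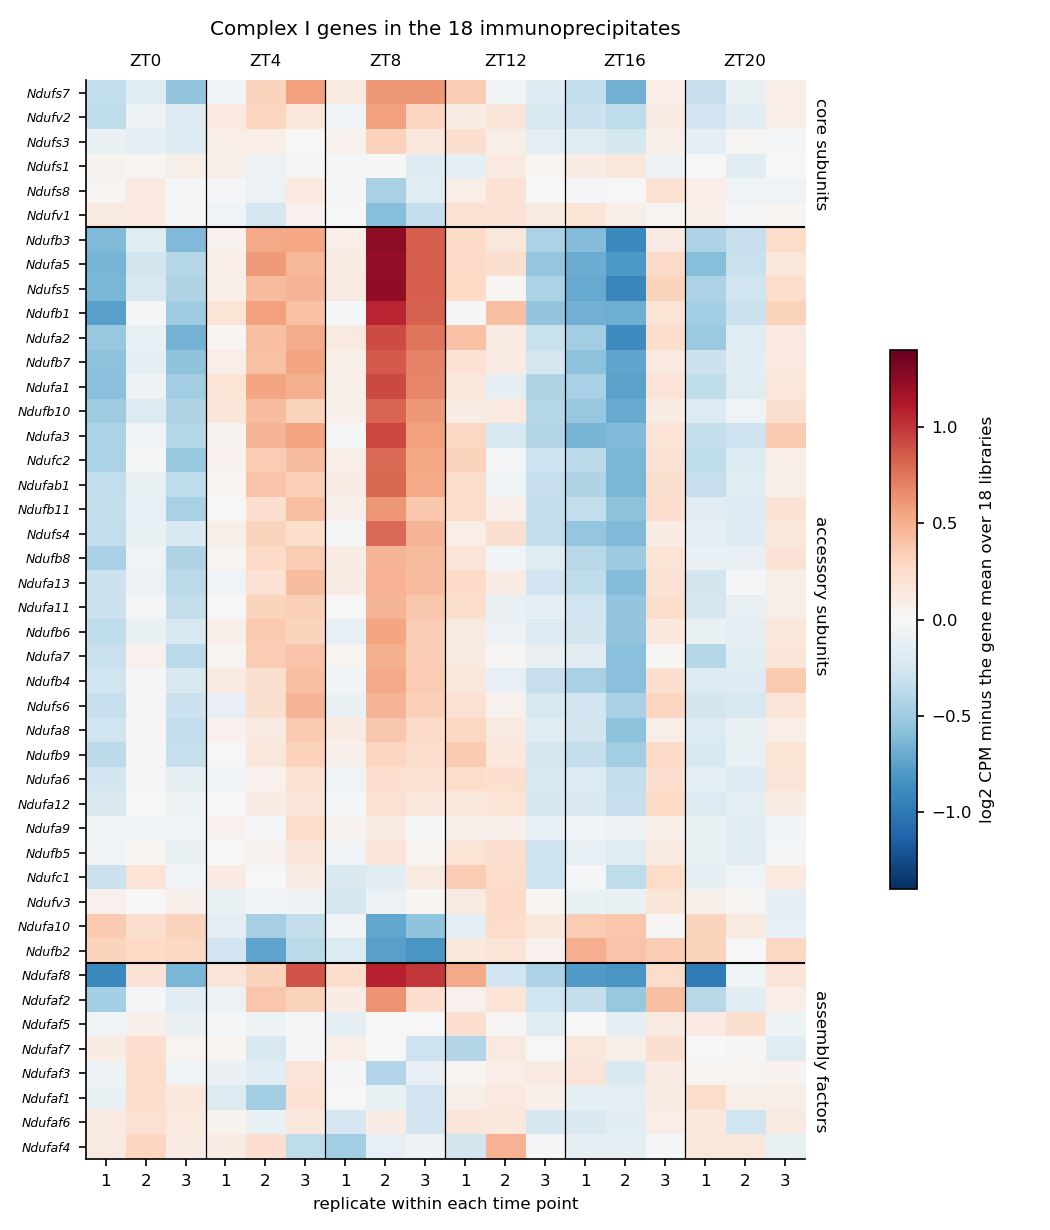
Levels of 44 complex I genes (lines, grouped as core subunits, accessory subunits and assembly factors) in the 18 immunoprecipitates (columns, replicates within each time point), coloured by log2 CPM minus the mean of the gene. Most accessory subunits are high in ZT8 replicates 2 and 3 and low in ZT16 replicate 2, Ndufa10 and Ndufb2 show the reverse, and ZT16 replicate 3 differs from the other ZT16 libraries.

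The 7 core subunits did not move as one. Ndufs7, which carries the last iron-sulfur cluster before ubiquinone (chr10:80249105-80256794), stood at 340.4, 383 and 294 CPM at ZT0 and at 471, 659 and 657.5 CPM at ZT8, and rose by 0.81 on the log2 scale (SE 0.19, edgeR adjusted p = 0.00917). The groups did not overlap. Ndufv2, which holds a 2Fe-2S cluster near the NADH site, had 266, 325 and 300.1 CPM at ZT0 and 333, 506 and 420.1 CPM at ZT8 (log2 fold change 0.50, SE 0.15, edgeR adjusted p = 0.0271). Ndufs3, a subunit of the ubiquinone module, rose by 0.32 (SE 0.11, edgeR adjusted p = 0.0434), from 185 ± 4.95 to 231 ± 21.4 CPM (SD, n = 3), a call that was lost with a correction for transcript length (0.11, edgeR adjusted p = 0.444). Ndufv1, which binds NADH and flavin mononucleotide, fell by 0.37 (SE 0.12, edgeR adjusted p = 0.0319). Its ZT0 libraries had 445, 449.8 and 402 CPM and its ZT8 libraries 408, 269.5 and 324 CPM, so that 1 ZT8 library lay within the ZT0 range. Of those that did not pass the test, Ndufs1, the largest iron-sulfur subunit, went from 214 ± 4.70 to 198 ± 14.2 CPM and the iron-sulfur subunit Ndufs8 from 206 ± 11.1 to 172 ± 25.2 CPM (SD, n = 3). With the length correction Ndufs8 was called lower (-0.54, edgeR adjusted p = 0.00619).

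Among the assembly factors Ndufaf8, the partner that stabilises Ndufaf5, was the single gene called. Its level was 6.50, 13.9 and 7.76 CPM at ZT0 and 14.4, 25.9 and 24.1 CPM at ZT8, a rise of 1.21 on the log2 scale (SE 0.35, edgeR adjusted p = 0.0227). The groups did not overlap, but the lowest ZT8 library lay close to the highest ZT0 library. Ndufaf5, the enzyme that hydroxylates an arginine of Ndufs7, was at 53.9 ± 3.49 and 53.1 ± 2.62 CPM (SD, n = 3). Ndufaf2, a factor that helps to attach the NADH-binding module, had 51.4 ± 8.01 CPM at ZT0 and 75.1 ± 14.6 CPM at ZT8, with a log2 fold change of 0.55 that missed the threshold (SE 0.21, edgeR adjusted p = 0.0753). The log2 fold changes of the other 5 lay below 0 and did not pass: Ndufaf1, which works with Ecsit and Acad9, -0.22, Ndufaf3 -0.22, its partner Ndufaf4 -0.39, Ndufaf6 -0.27 and Ndufaf7, a protein methyltransferase, -0.18. With the length correction Ndufaf6 was called lower (-0.48, edgeR adjusted p = 0.0353).

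Over all members tested, ZT8 and ZT0 libraries did not overlap for 33 genes, and for 34.7% of all genes. Of the 27 called genes 24 did not overlap, the exceptions being Ndufa7, Ndufb6 and Ndufv1. The count of calls depended on single libraries: 1 gene, Ndufb2, was called without ZT8 replicate 2, 6 without ZT0 replicate 1, 9 without ZT0 replicate 3 and 13 without ZT8 replicate 3. The calls over all genes fell in the same fits, from 2798 of 15572 to 274 of 15972, 639 of 16008, 1128 of 16008 and 1114 of 15938.

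**Figure D2:**
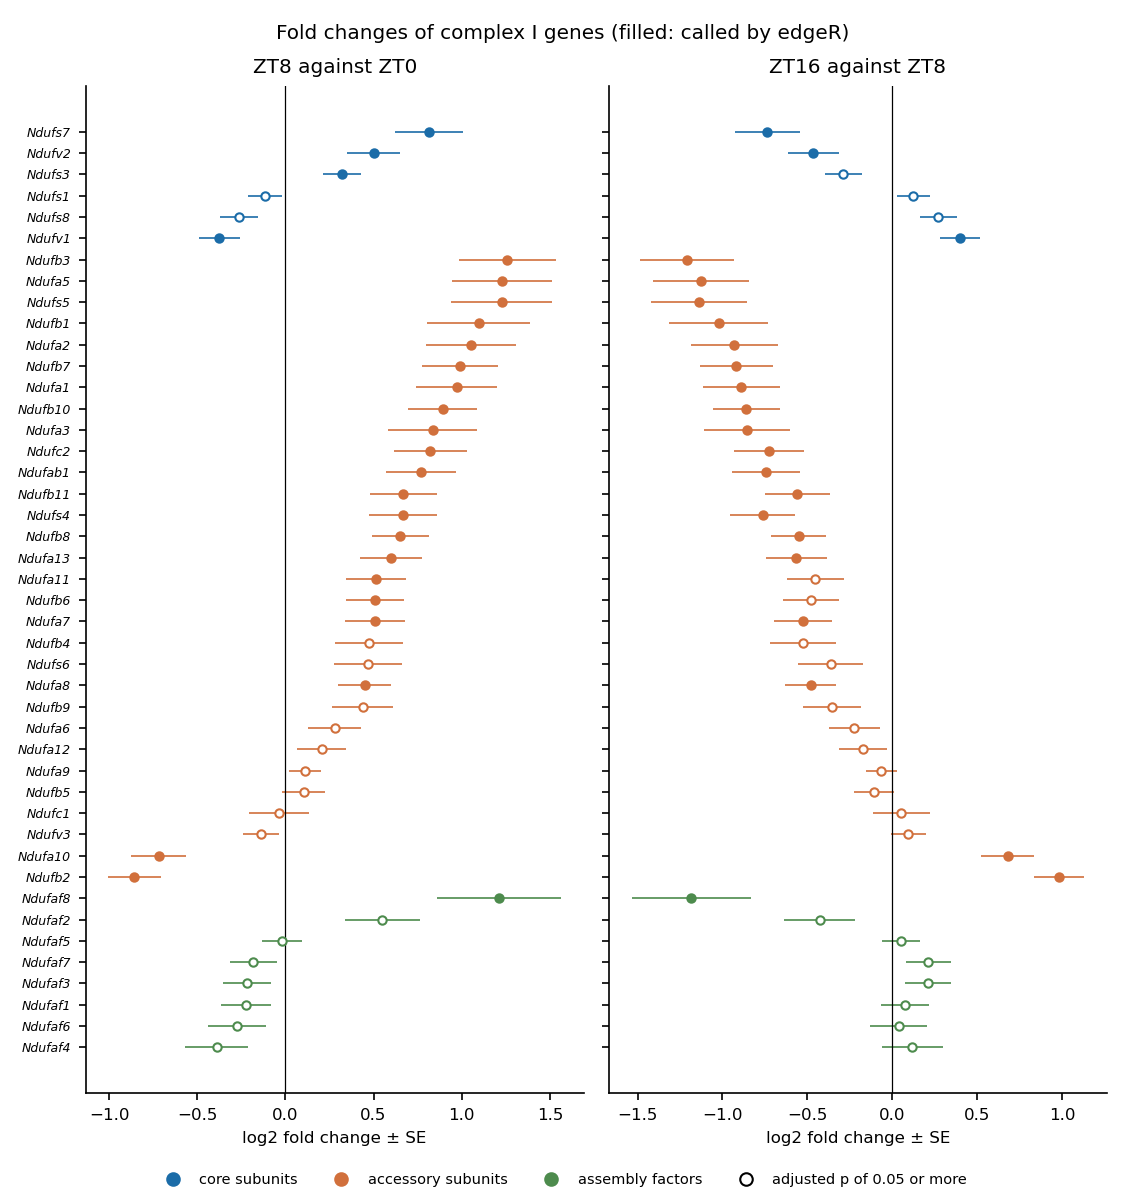
Log2 fold changes of 44 complex I genes with their standard errors (horizontal bars) for ZT8 against ZT0 on the left and ZT16 against ZT8 on the right, coloured by class and filled where the edgeR adjusted p was under 0.05. Accessory subunits lie mostly to the right of 0 on the left and to the left of 0 on the right, with Ndufa10 and Ndufb2 opposite, and 6 of the 8 assembly factors lie below 0 on the left.

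From ZT8 to ZT16, in the dark phase, 21 members were lower and 3 were higher (edgeR, adjusted p under 0.05; 16.9% of all genes called, 7.8% lower and 9.11% higher). This comparison shares the ZT8 libraries with the previous one, so both move together when those libraries do. Accessory subunits gave 17 lower and 2 higher (median log2 fold change -0.54), core subunits 2 lower and 1 higher (median -0.11) and assembly factors 1 lower (median 0.06). The falls were largest for Ndufb3 (-1.21), Ndufaf8 (-1.18), Ndufs5 (-1.14), Ndufa5 (-1.13) and Ndufb1 (-1.02). The 3 rises were those of Ndufb2 (0.98, SE 0.15, edgeR adjusted p = 0.00462), Ndufa10 (0.68, SE 0.16, edgeR adjusted p = 0.00922) and Ndufv1 (0.40, SE 0.12, edgeR adjusted p = 0.0247).

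For Ndufb3, ZT16 replicates 1 and 2 had 152 and 124 CPM, while replicate 3 exceeded the lowest ZT8 library at 248 CPM. ZT16 and ZT8 did not overlap for 7 members, 6 of them called, and for 27.2% of all genes. With Ndufs7 the ZT16 libraries reached 339.8, 272 and 461 CPM, all below the ZT8 libraries. The count fell to 1, Ndufb2, without ZT8 replicate 2 or without ZT16 replicate 2, to 3 without ZT16 replicate 1 and to 7 without ZT8 replicate 3. Over all genes the calls fell from 2633 of 15572 to 87 of 15972 and 72 of 16006, to 892 of 16131 and to 931 of 15938. When the 6 libraries of the pair were fitted alone, 0 members and 1 of 14407 genes were called by edgeR, while 27 members had an unadjusted p under 0.05.

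Between ZT20 and ZT8, edgeR called 0 members and 0.0% of all genes, with 27 members and 3474 of 15572 genes at an unadjusted p under 0.05. DESeq2 called 7 members and 1075 of 20704 genes. Without ZT8 replicate 1 the edgeR count was 19 (2320 of 16109 genes), without ZT16 replicate 3 it was 9 (578 of 16088) and without ZT20 replicate 3 it was 1 (256 of 16089). The lowest adjusted p was that of Ndufb2 (0.0557, edgeR), whose log2 fold change was 0.77 (SE 0.15). In the other 12 pairs of time points a single member was called, Ndufb2 from ZT4 to ZT16 (log2 fold change 0.88, SE 0.15, edgeR adjusted p = 0.0341, with 0.0642% of all genes called).

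A cosine curve with a 24 h period, fitted to the 18 immunoprecipitates, called 11 members (edgeR adjusted p from 0.0373 to 0.0455), where 6.24% of all genes were called. With the oligodendrocyte score as a covariate it called 0 members and 4 of 15572 genes, with 30 members at an unadjusted p under 0.05. The accessory subunits Ndufa1, Ndufa2, Ndufa5, Ndufab1, Ndufb3, Ndufb7, Ndufc2 and Ndufs5 and the core subunit Ndufs7 had fitted peaks between ZT6.72 and ZT7.67, so that 9 members were called with a peak in the light phase, against 3.33% of all genes. Amplitudes, from the mean to the peak, ran from 0.34 for Ndufab1 to 0.54 for Ndufa5 on the log2 scale. The remaining 2 peaked in the dark phase, Ndufb2 at ZT18.3 with an amplitude of 0.48 and Ndufa10 at ZT18.8 with an amplitude of 0.33. No assembly factor was called. Whether called or not, 34 of the 49 members had their fitted peak between ZT6 and ZT12, as did 31.7% of all genes.

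The test for any difference among the 6 time points called 10 members, where 6.74% of all genes were called. JTK_Cycle, a rank test for rhythms, called Ndufb2 alone (adjusted p = 0.0229, best period 20 h, peak at ZT16), where 0.0385% of all genes were called. Before the adjustment over genes, 16 members passed JTK_Cycle, against 15.8% of all genes. Without ZT16 replicate 3 these counts rose to 23 for the cosine fit (1546 of 16088 genes), 28 for the time test (2058 of 16088) and 7 for JTK_Cycle (740 of 15572, from 6). They fell to 0 for the cosine fit and JTK_Cycle and to 1 for the time test without ZT8 replicate 2, where 3, 0 and 57 of all genes were called. The cosine fit also called 0 members without ZT0 replicate 2, ZT4 replicate 2 or 3, ZT8 replicate 3, ZT12 replicate 1, ZT16 replicate 1 or 2, or ZT20 replicate 1, with 2 to 13 of all genes called, and 1 without ZT0 replicate 3 (213 genes). It called 7 without ZT0 replicate 1, ZT12 replicate 2 or ZT20 replicate 2 (672 to 801 genes), 17 without ZT8 replicate 1 (1120 genes), 20 without ZT12 replicate 3 (1610 genes) and 27 without ZT20 replicate 3 (2668 genes). The time test called 0 without ZT8 replicate 3 (5 genes), 1 without ZT0 replicate 1 or 3, ZT4 replicate 2 or ZT16 replicate 1 (79 to 167 genes), and 2 without ZT4 replicate 3 (531 genes). It called 5 without ZT12 replicate 2, ZT16 replicate 2 or ZT20 replicate 2 (428 to 549 genes), 6 without ZT20 replicate 1 (603 genes) and 22 without ZT8 replicate 1 (2454 genes). JTK_Cycle called 0 members and 0 genes without any 1 library of ZT4, ZT8 or ZT12 or without ZT16 replicate 1 or 2.

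**Figure D3:**
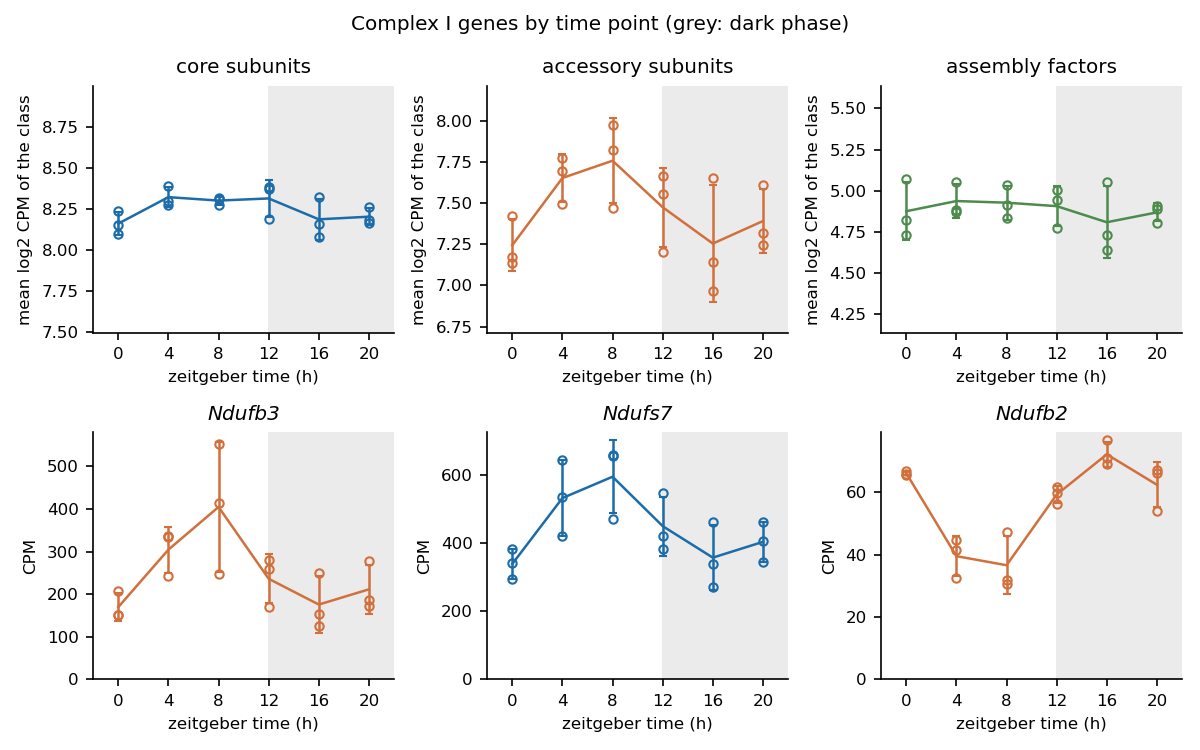
Class levels (top, mean log2 CPM over the genes of the class) and the levels of Ndufb3, Ndufs7 and Ndufb2 (bottom, CPM) against zeitgeber time in hours, with each library as a circle, lines through the means, SD bars (n = 3) and the dark phase in grey. The accessory class is at 7.76 ± 0.26 at ZT8 and at 7.25 ± 0.16 at ZT0, the assembly class at 4.93 ± 0.10 and 4.88 ± 0.18, and Ndufb2 is lowest at ZT8.

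The mean log2 CPM of the accessory subunits was 7.25 ± 0.16 at ZT0, 7.76 ± 0.26 at ZT8 and 7.26 ± 0.36 at ZT16 (SD, n = 3), whereas that of the core subunits was 8.16 ± 0.07, 8.30 ± 0.02 and 8.19 ± 0.13. Summed over the 37 subunits, the level was 7355 ± 685 CPM at ZT0 and 10490 ± 1709 CPM at ZT8.

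Libraries of the same time point differed. Taking the median of each subunit over the 18 libraries as reference, 6, 12 and 4 of the 37 subunits lay above it in the ZT0 libraries, and 20, 31 and 32 in the ZT8 libraries. The later times split: at ZT12 the numbers were 33, 28 and 5, at ZT16 they were 4, 5 and 33, and 5, 4 and 28 were found at ZT20. At ZT4 they were 20, 31 and 32. ZT12 replicate 3, ZT16 replicate 3 and ZT20 replicate 3 thus stood on the other side from their own group. The subunits moved with other short transcripts: in 18 of 18 libraries the median deviation of the subunits had the same sign as that of the 1427 other genes with transcripts under 1000 nt.

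Transcript length moved with the fold changes. The 24 subunits under 1000 nt had a median log2 fold change of 0.59 between ZT0 and ZT8, and all 1456 tested genes of that length had 0.40. The 13 longer subunits had a median of 0.16, and the 13473 longer genes -0.04. Across genes, which are not independent replicates, Spearman's rho of fold change and length was -0.33 over the 37 subunits and -0.14 over 14929 genes. Between 500 and 750 nt, 113 of 495 other genes were higher at ZT8 and 9 were lower. Their median was 0.42, and that of the 13 subunits of that length was 0.82. Under 500 nt the 306 other genes had a median of 0.63 and the 3 subunits -0.04. After a correction for length within each library, 18 members were higher and 7 lower, against 1621 and 1419 of all 15572 genes, with class medians of 0.11 for core subunits, 0.26 for accessory subunits and -0.22 for assembly factors. Ndufb3 kept a log2 fold change of 0.89 and Ndufa5 of 0.74, and Ndufb2, with a transcript of 455 nt, moved to -1.38. The calls of Ndufa11 (from 0.51 to 0.01), Ndufa7 (from 0.51 to 0.001), Ndufa3 (from 0.84 to 0.30), Ndufa8, Ndufb6 and Ndufs3 were lost, and Ndufa1 went from 0.97 to 0.35 and stayed called. Ndufc1, Ndufs8, Ndufaf6 and Ndufv3 were called lower only after the correction. From ZT8 to ZT16 the corrected counts were 17 lower and 6 higher, against 1496 and 1413 of all genes.

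**Figure D4:**
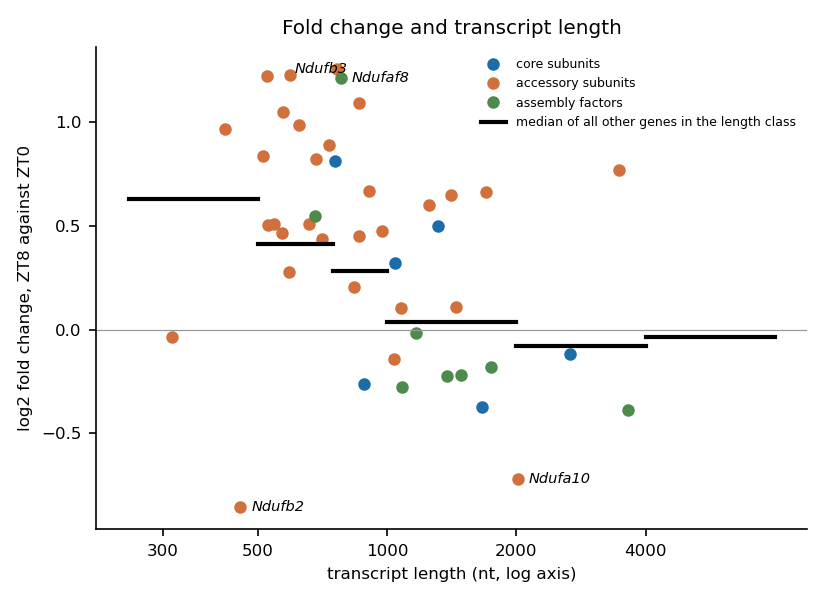
Log2 fold change of ZT8 against ZT0 for 44 complex I genes (points, coloured by class) against transcript length in nucleotides on a log axis, with black bars at the median of all other genes in each length class. The bars fall from 0.63 under 500 nt to -0.08 between 2000 and 4000 nt, and Ndufb2 lies far below the bar of its length class.

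Over the 18 libraries, the levels most like that of Ndufb2, by Pearson correlation of log2 CPM, were those of Ndufa10 (r = 0.90), Ndufv1 (0.82), Ndufs8 (0.62), Ndufaf1 (0.55) and Ndufaf3 (0.54). Those least like it were Ndufa1 (-0.83), Ndufb7 (-0.82), Ndufb10 (-0.82), Ndufa5 (-0.81) and Ndufb3 (-0.81). These values describe libraries that differ in time point and depth.

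Other genes of the pathway were read in the same fit. Over all genes, 8.95% were called higher and 9.02% lower at ZT8 than at ZT0, and 9.11% higher at ZT16 than at ZT8. Of 10 assembly factors without the Nduf prefix, Dmac1, a factor for the distal membrane arm, was higher at ZT8 than at ZT0 (log2 fold change 0.91, SE 0.21, edgeR adjusted p = 0.00842), and Acad9, an early assembly factor, was lower (-0.48, SE 0.12, edgeR adjusted p = 0.0134). Of the 7 core subunits encoded by mitochondrial DNA, 3 were lower at ZT8: ND2 by -1.48, ND4 by -1.33 and ND5 by -1.38. The same 3 were higher at ZT16 than at ZT8. All 7 were depleted relative to the pooled input (median log2 ratio -4.04). Whether their reads came from tagged ribosomes was not tested. Of 11 regulators of mitochondrial biogenesis, the nuclear receptor Esrra was higher at ZT8 than at ZT0 (0.38, edgeR adjusted p = 0.0357) and its relative Esrrg was lower (-1.07, edgeR adjusted p = 0.00842). With 1 higher and 1 lower each, the 10 assembly factors and the 11 regulators lay near the share of all genes.

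Against the pooled input, complex I genes were mostly higher in the immunoprecipitates. With 1 input library there is no test, and a gene was called enriched where the mean CPM was at least 2-fold that of the input and all 18 immunoprecipitates lay above it. By this rule 37 members were enriched, against 11.5% of 21169 genes, and 1 was depleted, against 21.2%. That background held every gene with at least 10 counts over the 19 libraries and was not limited to genes at the level of the members. The labels do not say which time points went into the pooled input. Enriched were 6 of 7 core subunits, 24 of 30 accessory subunits and 5 of 8 assembly factors, with median log2 ratios of 1.38, 1.43 and 1.199 and a median of -0.36 over all genes. The 7 subunits encoded by mitochondrial DNA were all depleted, with a median log2 ratio of -4.04. Scaling by library totals moved the median of all genes to -0.68 and that of the members from 1.36 to 1.04, and left 27 members and 1502 of 21169 genes enriched, with 5915 genes depleted.

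Ndufs5, with its uncertain counts, had the highest ratio at 5.72-fold. Ndufs7 had 94.9 CPM in the input (exact 95% Poisson interval 90.6 to 99.4, which covers counting error only) and 451 ± 120 CPM in the immunoprecipitates (SD, n = 18), or 4.75-fold. Ndufb3 had 54.2 CPM in the input (interval 50.9 to 57.6) and 253 ± 108 CPM, or 4.66-fold. Among members with at least 100 input counts the lowest ratios were those of Ndufaf4 (0.816-fold, with 1 of 18 immunoprecipitates above the input), Ndufb2 (1.44-fold) and Ndufaf8 (1.504-fold). Ndufa4l2 was the depleted member, at 0.423 ± 0.222 CPM against 2.55 CPM in the input (interval 1.88 to 3.38). Ndufb4b had 0 input counts, and the floor of 3 counts leaves no fold to give.

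**Figure D5:**
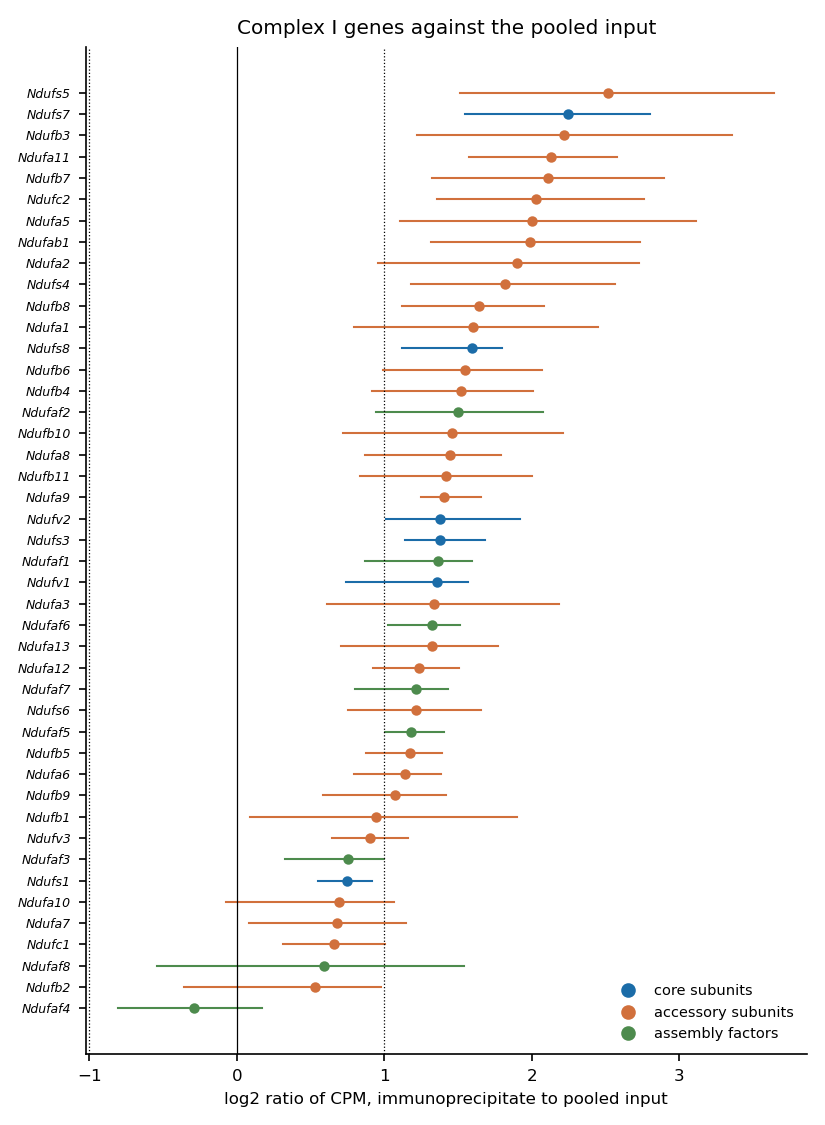
Log2 ratio of CPM in the immunoprecipitates to CPM in the pooled input for 44 complex I genes, with points at the ratio of the mean, bars from the lowest to the highest of 18 immunoprecipitates, and dotted lines at 2-fold. Ndufs5, Ndufs7 and Ndufb3 stand highest, and Ndufaf4 is the gene with its mean below the input at 0.816-fold.

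The remaining Nduf-named genes were few. Ndufa4 rose by 0.83 on the log2 scale from ZT0 to ZT8 (SE 0.21, edgeR adjusted p = 0.0126). Ndufb4c stood at 26.4 ± 4.87 CPM and Ndufa4l2 at 0.418 ± 0.219 CPM over 18 libraries (SD), and Ndufb4b at 0.404 ± 0.558 CPM, with none of the 3 called between ZT0 and ZT8. Ndufb4b and Ndufb4c share sequence with Ndufb4, and reads may be divided between them and Ndufb4 in either direction.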

How the data were processed

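Ribosome-bound poly-A RNA of 18 immunoprecipitates (3 at each of 6 time points) and 1 pooled input was sequenced in pairs from stranded libraries. The authors aligned reads with STAR 2.7.5 to mm10 and deposited RSEM expected counts per gene. Fractional counts, which arise where reads are shared between similar genes, were rounded to whole numbers here. They were found in all 19 libraries for Ndufa12, Ndufb4, Ndufb4c, Ndufs3 and Ndufs5, in 11 for Ndufb4b and in 9 for Ndufab1 and Ndufv2. The effect of shared reads on the results for these genes was not tested. The labels do not say that replicates were separate litters, so p-values measure the spread between these animals.

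Of 25601 genes with a count, 15572 passed filterByExpr and were tested with edgeR 4.0.16 (limma 3.58.1, R 4.3.3) by quasi-likelihood F tests after TMM scaling. SEs were taken from the F statistic. All 18 immunoprecipitates entered 1 fit, adjusted p-values are Benjamini-Hochberg over all genes tested, and 0.05 was the threshold. JTK_Cycle used periods of 20, 24 and 28 h on log2 CPM with a prior count of 2. DESeq2 1.42.0, other scalings and filters, and leaving out each library were alternatives. The steps were tested on simulated counts with a fixed spread and no shift shared by the genes of a library. The libraries here do shift with transcript length, a setting that the simulation did not cover. No pair of libraries was identical.

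The genes, lists and comparisons were chosen with earlier results of these data known. ZT8 against ZT0 and ZT16 against ZT8 were the pairs with most calls over all genes. Named were core subunits and Ndufaf genes, genes called by JTK_Cycle or the cosine fit, the 5 largest rises and falls, the 3 members at either end of the input ratio and of the level per kilobase, and members that were not tested or not of complex I. Transcript lengths came from GENCODE and RefSeq, and coordinates from RefSeq GRCm38.p6 by symbol. The values of 1 core subunit are not reported here, though it stays in the counts and medians.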

Additional observations from a re-analysis of the deposited data

How the results depend on the processing

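Counts below are of members called, with counts over all genes in brackets. For JTK_Cycle (1 in the report, with 6 of 15572 genes), the 24 h period alone gave 0 (1 gene). The threshold within each gene gave 16 (2464 genes). For the cosine fit (11, with 972 of 15572 genes), a filter of at least 1 count gave 27 (2349 of 25601). The oligodendrocyte score as a covariate gave 0 (4 of 15572) and DESeq2 20 (2223 of 20704). For the time test (10, with 1050 of 15572 genes), filters of at least 10 and 1 counts gave 16 (1375 of 20704) and 30 (2767 of 25601). The length correction gave 18 (1508 of 15572), the block with length correction 18 (1484 of 15572) and DESeq2 23 (2469 of 20704). From ZT8 to ZT16 (24, with 2633 of 15572 genes), the pair fitted alone gave 0 (1 of 14407). From ZT8 to ZT20 (0, with 0 of 15572 genes), the 2 filters gave 1 (154 of 20704) and 24 (1641 of 25601). The length correction gave 7 (466 of 15572) and the block with length correction 7 (567 of 15572). Length and GC correction gave 8 (809 of 15572), and DESeq2 7 (1075 of 20704). The cause was not tested. ZT8 against ZT0 had 22 to 30 calls (2589 to 3319 genes) under every setting that used all libraries, and DESeq2 gave 28 (3249 of 20704).

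Leaving out libraries gave 0 to 7 members for JTK_Cycle, 0 to 27 for the cosine fit, 0 to 28 for the time test, 0 to 32 for ZT8 against ZT0, 0 to 32 for ZT16 against ZT8, 0 to 19 for ZT20 against ZT8 and 38 to 39 past 2-fold against the input (38 with all libraries). Over all genes JTK_Cycle called 0 to 740, the cosine fit 0 to 2668 and the time test 0 to 2454. The 3 pairs, in the same order, had 0 to 4010, 0 to 3885 and 0 to 2320 genes. The counts of 0 for ZT8 against ZT0 came without replicate 2 or replicate 3 at every time point, and that for ZT16 against ZT8 without replicate 2. Ndufb4b ZT8 vs ZT0, a gene at under 1 CPM, had a log2 fold change of 0.39 and reversed to -6.03 without ZT8 replicate 1, within a range of -6.53 to 1.59 when libraries were left out.

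Replicate numbers are shared across time points. Deviations of same-numbered libraries correlated from -0.519 to 0.585 (median 0.0748, 18 of 45 pairs over 0.1). Those of different-numbered libraries correlated from -0.551 to 0.525 (median -0.0107, 32 of 90 pairs over 0.1). The labels do not say what the number stands for, and a shared batch was not tested. With the replicate number as a block the counts were 13 for the cosine fit, 10 for the time test, 25 for ZT8 against ZT0, 23 for ZT16 against ZT8 and 1 for ZT20 against ZT8. Over all 15572 genes they were 774, 1004, 2756, 2582 and 7. Depth limits Ndufa4l2, Ndufb4b, Ndufs6b and Ndufa11b.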
